A study of Mus musculus with 12 samples.

Results

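The 28 genes described here were chosen by name, as enzymes of cholesterol synthesis, regulators of SREBP and carriers of sterol, with values of all 12 libraries already known. Counts and levels over them are therefore descriptions, and each fold change with its error says how a gene differed against the spread between libraries. They are 8 genes of the mevalonate arm, 11 of the squalene and sterol arm, 5 of SREBP control and 4 of sterol transport and acetyl-CoA supply, of 55487 gene models in the table. All 28 were found, each in 1 row, and all passed the filter on low values, the scarcest value being 89 reads of Fdps in 1 library. Other genes of the pathway are not analysed here, apart from 4 lists of partner genes that are given as counts.

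Cholesterol is made in animal cells from acetyl-CoA through mevalonate, the isoprenoid pyrophosphates, squalene and a series of sterol intermediates. Transcription of these enzymes is driven by the sterol regulatory element binding proteins (SREBPs), which are held in the endoplasmic reticulum by the escort protein SCAP and the INSIG anchors when sterols are plentiful, and are carried to the Golgi and cut to their active form when sterols fall. SREBPs act at promoters together with NF-Y and Sp1. Macrophages also take up cholesterol with lipoproteins and cell debris, and NPC2 and NPC1 hand it out of the lysosome.

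The libraries came from poly(A) RNA of bone-marrow-derived macrophages (BMDMs), which are grown from marrow precursors, here in medium conditioned by L929 cells. The groups were RasGEF1b-cKO (KO) BMDMs treated with lipopolysaccharide (LPS) at 100 ng/ml for 4 h, KO BMDMs left untreated, wild-type (WT) C57BL/6 BMDMs treated with LPS in the same way, and untreated WT BMDMs, with 3 libraries in each group. KO mice were Rasgef1b fl/fl animals crossed with CMV-Cre mice, so exons 7 and 8 were deleted in the whole animal and not in macrophages alone, and mice of both genotypes were 8 to 12 weeks old. WT mice came from a named animal facility and are not described as littermates of the KO mice, so genotype and origin cannot be told apart.

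The libraries held 19316691 to 24977356 reads in genes. The deposited values are normalized counts, gene counts divided by 1 size factor per library, and they sum to 25980274 to 28238994 in LPS-treated against 16361938 to 17384975 in untreated libraries. A difference between LPS-treated and untreated cells thus rests on those size factors, while a difference between genotypes hardly does. Rasgef1b, the targeted gene, had 3775, 4192 and 3618 normalized counts in LPS-treated KO BMDMs, against 12554, 11855 and 11844 in LPS-treated WT BMDMs. Untreated KO BMDMs had 695, 545 and 587, against 2171, 2001 and 2043 in untreated WT BMDMs, so every library matched its label. All 8 macrophage markers were present, with sums of 215104 to 392543 per library. The markers of each other cell type summed to at most 1521. Of these, Lck of the T cell list and Kdr of the endothelial list were higher with LPS, at 675 to 1347 and 681 to 1118 normalized counts in LPS-treated against 1.43 to 4.94 and 70.2 to 130.1 in untreated libraries, while no other T cell marker followed Lck. The endothelial markers Pecam1 and Cdh5 were higher with LPS as well, at 61.5 to 139 and 25.9 to 48.4 in LPS-treated against 5.01 to 11.3 and 10.0 to 15.1 in untreated libraries, while Tek was at 0 to 0.855 in all. Their part in the results was not tested. Replicate 2 of the untreated KO BMDMs had 5.06% of its reads in 1 ribosomal RNA gene model, against at most 0.0874% in the others.

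Promoter windows of 300 bases, from 250 bases before to 50 after a RefSeq start (GRCm38.p6), could be matched for 23 of the 28 genes. The windows of 5 genes are shown because these genes stand at or near the ends of the LPS response or of the genotype difference, or, as Insig1, feed back on SREBP. Capitals mark CCAAT, or ATTGG for the other strand, which are the letters bound by NF-Y, and in Hmgcs1 also the sterol regulatory element searched as TCACNCCAC. Positions are chr13:119690101-119690400 on the plus strand for Hmgcs1, chr13:8885356-8885655 plus for Idi1, chr10:76531355-76531654 plus for Lss, chr7:143829964-143830263 plus for the last of 3 starts of Dhcr7, and chr5:28071162-28071461 plus for Insig1.
Hmgcs1: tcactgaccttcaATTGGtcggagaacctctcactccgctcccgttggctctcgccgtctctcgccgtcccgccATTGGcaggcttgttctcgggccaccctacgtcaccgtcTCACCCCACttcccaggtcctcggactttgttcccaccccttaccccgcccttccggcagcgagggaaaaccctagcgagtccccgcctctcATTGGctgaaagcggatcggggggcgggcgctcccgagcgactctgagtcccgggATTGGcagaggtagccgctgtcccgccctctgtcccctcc
Idi1: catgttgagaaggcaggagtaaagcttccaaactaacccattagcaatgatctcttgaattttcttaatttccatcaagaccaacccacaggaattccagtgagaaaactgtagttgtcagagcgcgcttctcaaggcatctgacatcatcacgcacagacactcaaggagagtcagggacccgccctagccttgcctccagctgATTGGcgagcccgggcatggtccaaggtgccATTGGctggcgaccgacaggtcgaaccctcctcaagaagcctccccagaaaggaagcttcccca
Lss: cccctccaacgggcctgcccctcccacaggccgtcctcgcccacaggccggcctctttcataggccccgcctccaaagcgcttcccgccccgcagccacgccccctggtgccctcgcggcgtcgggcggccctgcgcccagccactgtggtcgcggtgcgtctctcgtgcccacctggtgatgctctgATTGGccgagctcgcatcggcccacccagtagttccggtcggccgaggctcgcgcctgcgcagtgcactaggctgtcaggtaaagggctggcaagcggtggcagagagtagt
Dhcr7: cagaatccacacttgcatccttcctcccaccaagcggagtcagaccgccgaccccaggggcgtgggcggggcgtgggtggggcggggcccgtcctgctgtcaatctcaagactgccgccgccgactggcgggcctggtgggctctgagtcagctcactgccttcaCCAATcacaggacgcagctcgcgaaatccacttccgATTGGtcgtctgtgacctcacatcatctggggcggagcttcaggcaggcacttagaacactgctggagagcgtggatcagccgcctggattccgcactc
Insig1: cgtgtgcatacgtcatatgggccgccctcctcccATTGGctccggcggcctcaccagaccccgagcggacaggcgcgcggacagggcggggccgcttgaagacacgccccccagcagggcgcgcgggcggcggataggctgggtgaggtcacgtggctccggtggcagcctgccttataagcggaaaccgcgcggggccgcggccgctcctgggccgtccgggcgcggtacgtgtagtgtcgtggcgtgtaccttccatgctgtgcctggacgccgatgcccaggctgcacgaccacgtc

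CCAAT on either strand occurred in a window of 21 of the 23 genes (91.3%), against 43.0% of 9600 genes expressed in these libraries and 41.1% of all 27025 genes with a window. Mvk and Msmo1 held 5 and 3 copies, Hmgcs1 4, and Acat2 and Scap none. The Sp1 letters GGGCGG occurred in 21 genes as well (91.3%), against 67.8% of the expressed genes, and median GC content was 62.3% in the windows of the 23 genes and 60.3% in those of the expressed genes. The strict sterol element was found once, in Hmgcs1 at -137 from the start, against 1.35% of the expressed genes. The E-box CACGTG was in 5 genes (21.7%), Dhcr7, Hsd17b7, Insig1, Sc5d and Scap, against 11.9%. The NF-kB motif was in none, against 1.81%, and the interferon-stimulated response element in Ggps1 and Ebp, 2 genes (8.7%), against 4.15%. All motifs were searched on both strands. A match is a string of letters and was not tied to binding in these cells.

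Of the 19 synthesis genes, 3 passed as higher in KO than in WT BMDMs at an adjusted p under 0.05 in LPS-treated cells and 3 in untreated cells. They were Acat2, Cyp51 and Hsd17b7 with LPS and Hmgcs1, Fdft1 and Lss without it, so no gene passed in both. All that passed were higher by less than 2-fold, and the shares of all genes tested that passed as higher were 0.504% and 0.257%. Estimated log2 fold changes of KO over WT were positive for 19 of the 19 with LPS and 18 without it, most of them short of that test. Over all genes tested they were positive for 6199 of 12504 with LPS and 5806 of 12461 without it. Summed over the 19 synthesis genes, LPS-treated KO BMDMs had 22150, 25200 and 28572 normalized counts, against 17291, 19191 and 20669 in LPS-treated WT BMDMs. Untreated KO BMDMs had 24024, 25664 and 24027, against 19049, 19804 and 15699 in untreated WT BMDMs. Each KO sum was above each WT sum of the same treatment. On the deposited scale the sums of the arms differed in their response to LPS, while their median log2 fold changes were close. These medians were 0.02 in KO and 0.02 in WT for the mevalonate arm. For the squalene and sterol arm they were -0.05 and -0.04. The mevalonate arm summed to 9427, 10629 and 12472 in LPS-treated KO against 7823, 8284 and 7855 in untreated KO BMDMs, and the squalene and sterol arm to 12723, 14571 and 16101 against 16201, 17380 and 16172. In WT BMDMs the mevalonate arm summed to 7425, 8027 and 9406 with LPS against 5874, 6164 and 4849 without it, and the squalene and sterol arm to 9866, 11164 and 11262 against 13175, 13640 and 10850. Hmgcs1 was the largest part of the gain in the mevalonate arm, and Sqle of the loss in the squalene and sterol arm, where LPS-treated and untreated WT libraries overlapped. As a share of all normalized counts of a library, the mevalonate arm took 0.0340% to 0.0461% in LPS-treated against 0.0476% to 0.0478% in untreated KO, and 0.0273% to 0.0333% in LPS-treated against 0.0293% to 0.0374% in untreated WT, so its direction turns on that scale.

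**Figure D1:**
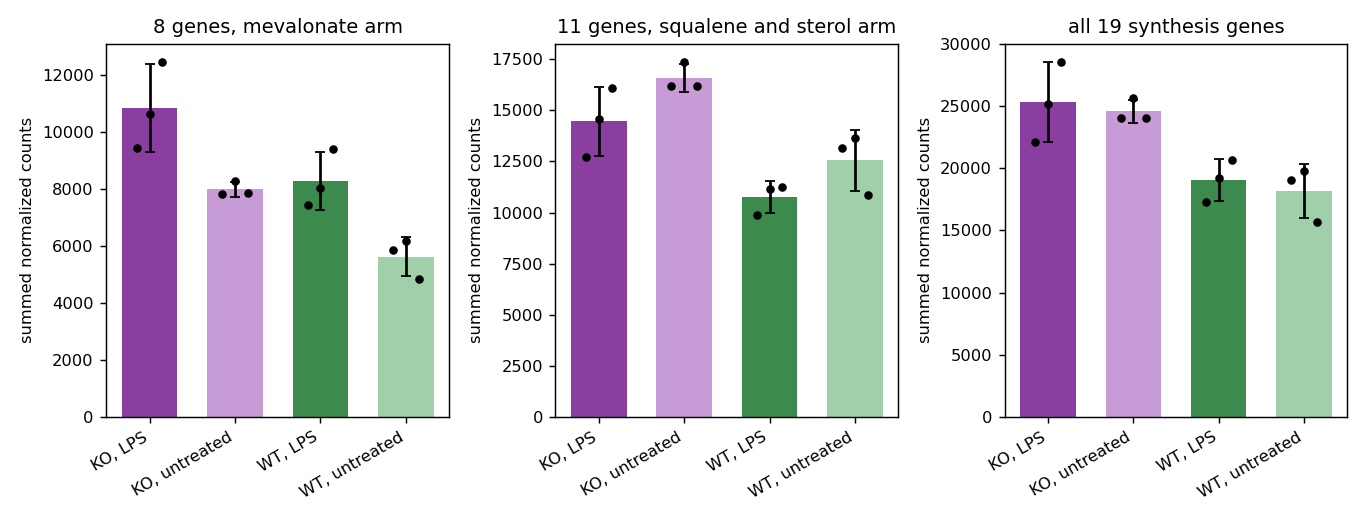
Summed normalized counts (y axis, from 0) of the 8 mevalonate genes, the 11 squalene and sterol genes and all 19 genes in the 4 groups. Bars are means, whiskers are SDs and points are the 3 libraries of a group. In the panel of 19 genes the 3 LPS-treated KO libraries lie at 22150 to 28572, above the 3 LPS-treated WT libraries at 17291 to 20669, and untreated KO libraries lie likewise above untreated WT libraries.

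**Figure D2:**
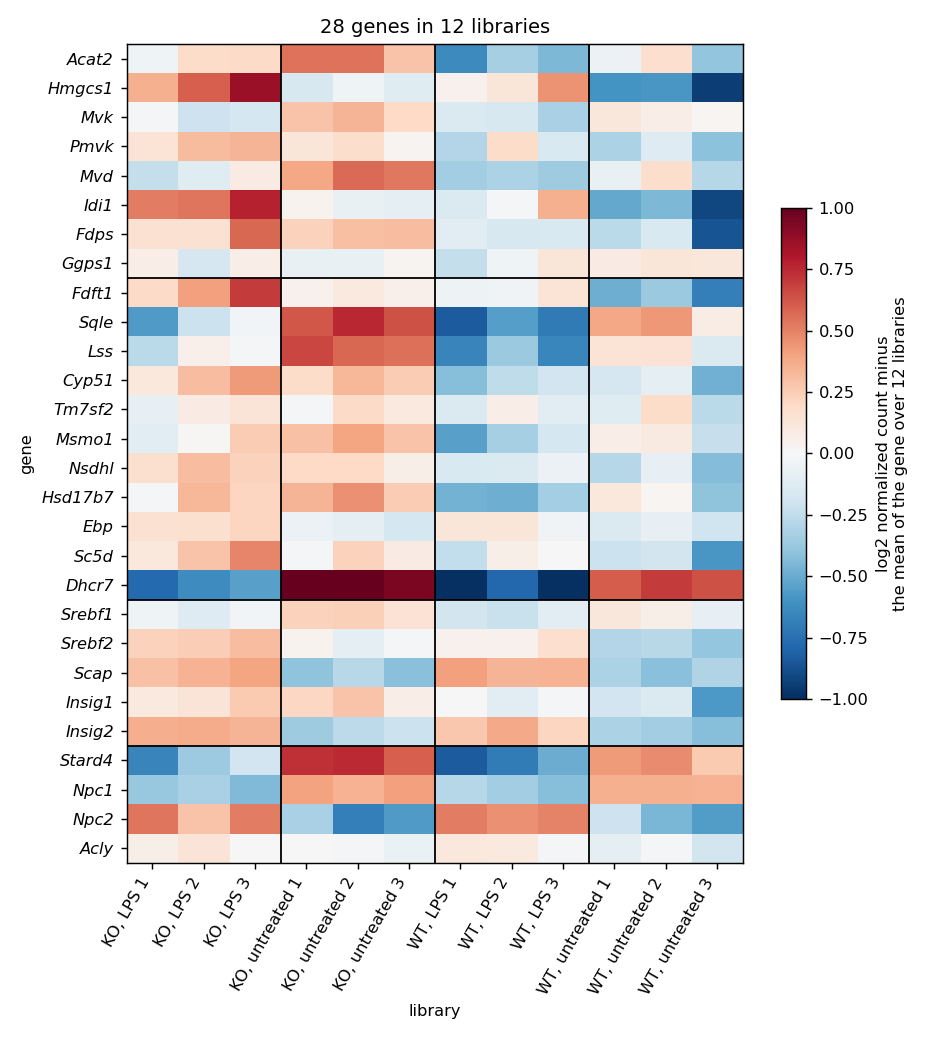
Each of the 28 genes (rows) in each of the 12 libraries (columns), as the log2 normalized count minus the mean of that gene over the 12 libraries. Red is above and blue below the mean, and values beyond 1 or -1 share the end colour. Replicate 3 of untreated WT is the lowest of its group in 25 of 28 rows.

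In the untreated cells 25 of the 28 genes had a positive difference between KO and WT, beside 5806 of all 12461 genes tested. The median log2 fold change was 0.38 against -0.01 over all genes tested. The KO and WT libraries did not overlap for 20 genes that were higher in KO, beside 8.41% of all genes tested, and for 1 that was lower, beside 7.98%. In a limma fit of log2(normalized count + 1), with p-values adjusted by Benjamini-Hochberg over all 12461 genes tested, 3 genes were higher in KO at an adjusted p under 0.05 (0.257% of all genes) and none lower (0.281%). At an unadjusted p under 0.05, 20 genes were higher (5.75% of all genes) and 0 lower (5.05%). No member passed with a fold change of 2 or more (0.193% of all genes), nor did any at an unadjusted p.

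In LPS-treated cells 25 of the 28 genes had a positive difference, beside 6199 of all 12504 genes tested, with a median of 0.31 against -0.00 over all genes. Groups did not overlap for 15 genes that were higher in KO (8.35% of all genes) and for 0 that were lower (7.73%). The same test found 3 genes higher at an adjusted p under 0.05 (0.504%) and 0 lower (0.312%), and 17 higher (5.49%) and 0 lower (5.09%) at an unadjusted p under 0.05. Again none reached 2-fold (0.232% of all genes) at either p. The comparisons in treated and untreated cells share no library, but they cannot be taken as independent. Deviations from the group means correlated at 0.171 to 0.334 between LPS-treated and untreated libraries of a genotype that share a replicate number. With other numbers the values were -0.241 to 0.0109. Between KO and WT libraries of the same treatment they reached 0.297, so such values alone do not settle a pairing.

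These calls between genotypes were sensitive to the tool and to single libraries, while the genes that passed kept their direction. With 1 library left out, 25 or 26 of the 28 genes had a positive difference in untreated cells and 24 to 26 in LPS-treated cells. With DESeq2 on the recovered reads 18 genes were higher in untreated KO BMDMs (1.41% of all genes) and 7 in LPS-treated KO BMDMs (1.06%). With edgeR the counts were 2 (0.225%) and 3 (0.552%). In untreated cells leaving out KO replicate 2, KO replicate 3, WT replicate 1 or WT replicate 2 left 0 genes. The shares of all genes higher in KO were then 0.129%, 0.0402%, 0.0481% and 0.0241%. Leaving out KO replicate 1 left 1 (0.265%), and leaving out WT replicate 3 left 3 (0.241%). In LPS-treated cells leaving out KO replicate 2, KO replicate 3, WT replicate 1 or WT replicate 2 left 0. The shares of all genes were then 0.256%, 0.152%, 0.176% and 0.0799%. Leaving out WT replicate 3 left 3 (0.432%), and leaving out KO replicate 1 gave 6 (0.568%). Replicate 3 of untreated WT BMDMs was the lowest of its group in 25 of the 28 genes. Without it 20 genes still did not overlap and were higher in KO, beside 14.7% of all genes, and the median difference was 0.27. Without it and the library rich in ribosomal RNA, 21 genes did not overlap, beside 25.1% of all genes, and the median was 0.23.

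Hmgcs1, which joins acetyl-CoA to acetoacetyl-CoA at the entry to the mevalonate arm, was the most abundant of the synthesis genes per length. Its normalized counts were 4222, 4588 and 4348 in untreated KO against 3115, 3153 and 2454 in untreated WT BMDMs, and the groups did not overlap. The log2 fold change was 0.60 (SE 0.10, adjusted p = 0.0427 by limma). With LPS it had 6042, 7151 and 8597 in KO against 4856, 5143 and 6446 in WT, where the groups overlapped, with a log2 fold change of 0.40 (SE 0.13, adjusted p = 0.287).

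Acat2, the cytosolic thiolase that makes acetoacetyl-CoA, had 358, 418 and 421 normalized counts in LPS-treated KO against 236, 292 and 269.9 in LPS-treated WT BMDMs. No KO library fell within the WT range, and the log2 fold change was 0.58 (SE 0.11, adjusted p = 0.0492). In untreated cells the values were 535, 536 and 449.7 in KO against 354, 414 and 279.6 in WT, also without overlap, with 0.55 (SE 0.14, adjusted p = 0.161).

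Mvk, Pmvk and Mvd carry mevalonate to isopentenyl pyrophosphate by 2 phosphorylations and a decarboxylation, and Idi1 isomerizes the product. In untreated cells all 4 were higher in every KO library than in every WT library, with log2 fold changes of 0.21 for Mvk, 0.39 for Pmvk, 0.55 for Mvd and 0.58 for Idi1 and adjusted p-values of 0.272, 0.112, 0.0874 and 0.0874. With LPS only Mvd and Idi1 of these 4 stayed without overlap. Idi1 had 1074, 1093 and 1284 normalized counts in LPS-treated KO against 681, 742 and 965 in LPS-treated WT BMDMs, and 774, 715 and 710.3 in untreated KO against 530.1, 554 and 401 in untreated WT. Mvk was the flattest of them with LPS, at 0.08 (SE 0.10).

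Fdps makes farnesyl pyrophosphate, at the branch between sterols and isoprenoids, and had the highest fold change of the 28 genes in untreated cells, on the fewest reads. It had 161, 169 and 169.7 normalized counts in untreated KO against 114, 123 and 75.7 in untreated WT BMDMs, and the log2 fold change was 0.70 (SE 0.18, adjusted p = 0.153). LPS-treated KO had 152, 153 and 204, against 127, 123 and 124 in LPS-treated WT. Ggps1, which takes farnesyl pyrophosphate to geranylgeranyl pyrophosphate and so away from sterols, was the exception of the arm. It had 327, 327 and 349 in untreated KO against 364, 372 and 370.4 in untreated WT, lower in KO without overlap, at -0.14 (SE 0.07, adjusted p = 0.498), and the groups overlapped with LPS. Ggps1 shares 257 exon bases with Arid4b on the opposite strand, whose mean was 804 normalized counts. The part of Arid4b in the values of Ggps1 was not tested.

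At the head of the squalene arm stand Fdft1, which condenses farnesyl pyrophosphate to squalene, Sqle, which oxidizes it, and Lss, which closes the ring to lanosterol. Fdft1 had 945, 982 and 949 normalized counts in untreated KO against 653, 709 and 573 in untreated WT BMDMs, a log2 fold change of 0.58 (SE 0.08, adjusted p = 0.0284). Lss had 1258, 1179 and 1158 in untreated KO against 868, 875 and 715 in untreated WT, at 0.55 (SE 0.08, adjusted p = 0.0411). Neither overlapped between genotypes in untreated or LPS-treated cells. With LPS, Fdft1 was at 1047, 1224 and 1494 in KO against 888, 898 and 1011 in WT, and Lss at 656, 819 and 781 in KO against 499.6, 610.0 and 504 in WT, with adjusted p-values of 0.197 and 0.101. Fdft1 shares 774 exon bases with Ctsb on the opposite strand, whose mean was 325062 normalized counts, and strand use in counting is not given in the sources used here. Ctsb differed by -0.12 (SE 0.13) between genotypes in untreated and by -0.11 (SE 0.12) in LPS-treated cells, and its part in the values of Fdft1 was not tested. Sqle was at 0.37 (SE 0.09) in untreated cells, without overlap, and at 0.43 (SE 0.13) with LPS, where the groups overlapped by 1 library.

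Cyp51 removes the 14-alpha methyl group of lanosterol, and Msmo1, Nsdhl and Hsd17b7 take off the pair of methyl groups at carbon 4. All of them were higher in every KO library than in every WT library, with and without LPS. Cyp51 had 2984, 3426 and 3721 normalized counts in LPS-treated KO against 2065, 2328 and 2427 in LPS-treated WT BMDMs, a log2 fold change of 0.57 (SE 0.09, adjusted p = 0.0254). Hsd17b7 had 606, 769 and 712 against 442, 435 and 483, at 0.61 (SE 0.10, adjusted p = 0.0278), the highest fold change of the 28 genes with LPS. In untreated cells Cyp51 was at 0.50 (SE 0.10, adjusted p = 0.0744) and Hsd17b7 at 0.44 (SE 0.13, adjusted p = 0.219). Msmo1 was at 0.40 with LPS and 0.35 without, and Nsdhl at 0.35 and 0.42. Cyp51 shares 166 exon bases with Akap9 on the opposite strand, which differed by -0.08 (SE 0.08) with LPS and -0.07 (SE 0.09) without.

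The last steps split. Sc5d, the lathosterol desaturase, and Dhcr7, which reduces 7-dehydrocholesterol, did not overlap between genotypes, and were at 0.35 and 0.38 with LPS and at 0.42 and 0.39 without it. With LPS the gap of Dhcr7 was narrow, its lowest KO library being at 186.3 and its highest WT library at 185.6 normalized counts. Tm7sf2, a sterol C14 reductase, was at 0.10 (SE 0.11) and 0.16 (SE 0.12), and Ebp, the sterol isomerase, at 0.11 (SE 0.08) and 0.03 (SE 0.06). Tm7sf2 overlapped between genotypes under both treatments. It also shares 532 exon bases with Vps51 on the same strand, so its level is less certain.

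Of the regulators, Srebf2, which encodes SREBP-2, the main activator of the synthesis genes, had 6754, 6797 and 7101 normalized counts in LPS-treated KO against 5934, 5912 and 6462 in LPS-treated WT BMDMs, and 5877, 5355 and 5663 in untreated KO against 4695, 4750.0 and 4393 in untreated WT. No KO library was within the WT range of its treatment, and the log2 fold changes were 0.17 (SE 0.06, adjusted p = 0.356) and 0.29 (SE 0.06, adjusted p = 0.0860). Insig1, itself a target of SREBP, had 4333, 4435 and 4856 in LPS-treated KO against 4056, 3745 and 3991 in LPS-treated WT, and 4683, 4945 and 4247 in untreated KO against 3559, 3669 and 2718 in untreated WT. It did not overlap either, at 0.21 (SE 0.07, adjusted p = 0.283) with LPS and 0.49 (SE 0.11, adjusted p = 0.127) without. Srebf1, the gene of SREBP-1, was at 0.10 and 0.18. Scap was at -0.02 with and without LPS, and Insig2 at 0.07 and 0.09, so that these 2 genes overlapped between genotypes in both comparisons.

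No carrier passed between genotypes. Stard4, a soluble sterol carrier, had 1728, 1746 and 1575 normalized counts in untreated KO against 1399.9, 1446 and 1248 in untreated WT BMDMs, a log2 fold change of 0.30 (SE 0.07, adjusted p = 0.130). With LPS it had 659, 807 and 912 in KO against 584, 641 and 737 in WT, where the groups overlapped, at 0.27 (SE 0.13, adjusted p = 0.494). Npc1 was at -0.03 with LPS and 0.03 without, Npc2 at -0.04 and -0.12, and Acly, the enzyme that makes cytosolic acetyl-CoA from citrate, at 0.00 and 0.07. Sorted by arm, the median log2 fold changes were 0.40 with LPS and 0.42 without for the 11 squalene and sterol genes, 0.38 and 0.55 for the 8 mevalonate genes, 0.10 and 0.18 for the 5 regulators, and -0.01 and 0.05 for the 4 carrier and supply genes.

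**Figure D3:**
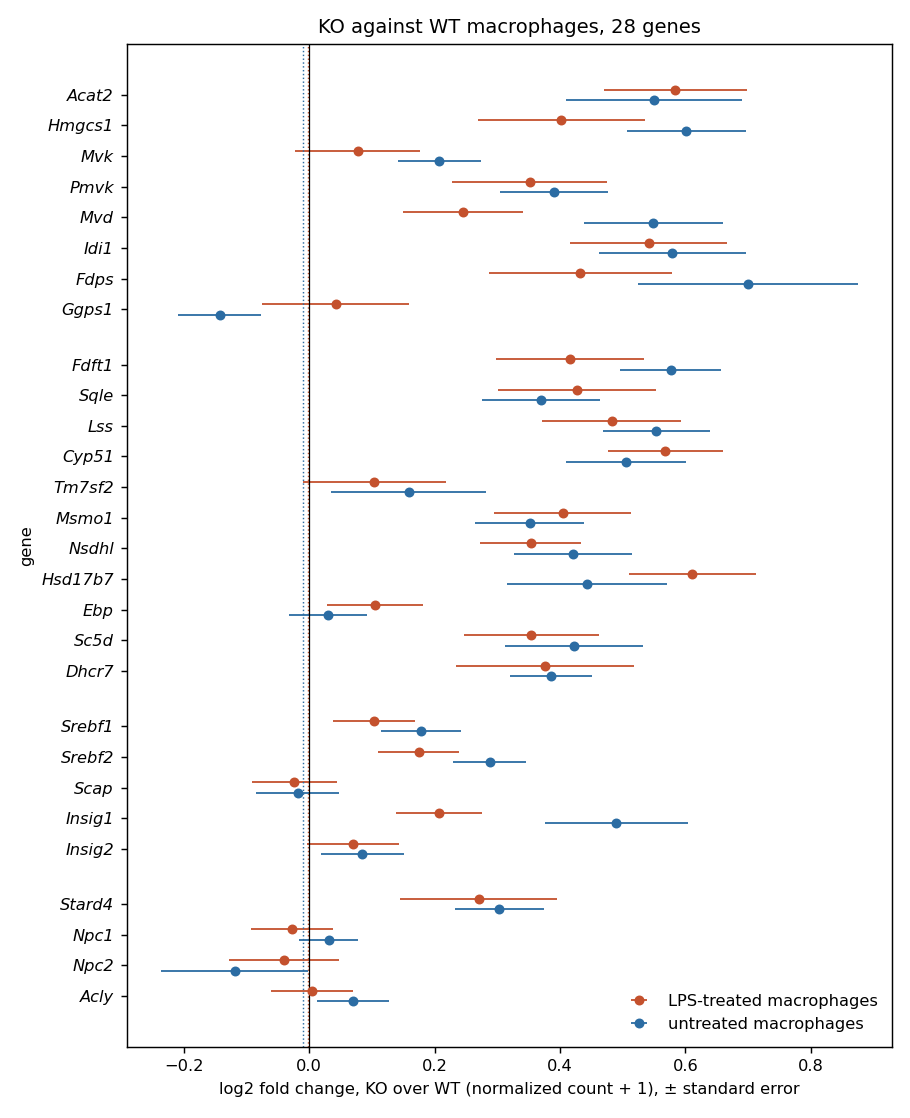
Log2 fold change of KO over WT (x axis, log2 of normalized count + 1) for the 28 genes, grouped from top to bottom into mevalonate arm, squalene and sterol arm, SREBP control, and transport and supply. Points are estimates from 3 against 3 libraries, bars are standard errors, and dotted lines are medians of all genes tested. In untreated cells 25 genes lie right of 0, from 0.03 for Ebp to 0.70 for Fdps, and in LPS-treated cells 25 do.

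On the deposited scale some of the 28 genes were higher and others lower after LPS, in shares close to those over all genes, and the balance of directions turned with the scaling. Dhcr7, Stard4, Sqle, Lss and Npc1 were lower in LPS-treated than in untreated BMDMs of both genotypes under each scaling tried, while Hmgcs1, Idi1, Fdft1, Srebf2, Scap, Insig2 and Npc2 were higher on the deposited scale. In KO BMDMs 8 genes were higher at an adjusted p under 0.05, beside 36.3% of the 12732 genes tested, and 10 were lower, beside 35.7%. With a fold change of at least 2 as well, 0 were higher (17.3% of all genes) and 2 were lower (16.6%). In WT BMDMs 9 were higher, beside 36.7% of the 12656 genes tested, and 11 lower, beside 36.6%, and at 2-fold 0 were higher (17.1%) and 2 lower (16.9%). Scaling to the total gave 1 higher and 23 lower in KO and 0 and 22 in WT at an adjusted p under 0.05. Scaling to the upper quartile gave 15 and 6 in KO and 15 and 5 in WT, and quantile normalization 3 and 16 in KO and 5 and 13 in WT. The balance over all genes moved as well. Total scaling called 2172 of 12772 genes higher and 8671 lower in KO, and 2143 of 12712 and 9051 in WT. Upper quartile scaling called 6209 of 12724 and 3179 in KO, and 6304 of 12682 and 3191 in WT. Quantile normalization called 3716 of 12732 and 5341 in KO, and 3728 of 12656 and 5429 in WT. On the deposited scale the 11 lower in WT became 5 without untreated replicate 1, beside 4240 of all 12674 genes. They became 6 without untreated replicate 2 (4157 of 12670) or LPS replicate 1 (4519 of 12681), and 7 without LPS replicate 2 (4444 of 12685). The 0 higher at 2-fold stayed 0 at an unadjusted p and with edgeR, DESeq2, total scaling or quantile normalization. In KO Npc2 passed 2-fold higher when LPS replicate 2 or untreated replicate 1 was left out. With upper quartile scaling Npc2 passed 2-fold higher in KO, at 1.25, and Hmgcs1, Npc2 and Scap in WT, at 1.21, 1.19 and 1.01, while Dhcr7 alone remained lower by 2-fold in either genotype. Median log2 fold changes were 0.02 in KO and 0.08 in WT, against -0.01 and -0.02 over all genes. The replicate number as a block left the counts at 2-fold as they were.

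Dhcr7 had 186, 207 and 219 normalized counts in LPS-treated KO against 681, 670.4 and 614 in untreated KO BMDMs, and 137, 186 and 152 in LPS-treated WT against 487, 518 and 497 in untreated WT. No LPS-treated library came near an untreated one. The log2 fold changes were -1.68 (SE 0.09, adjusted p = 4.85e-07) in KO and -1.67 (SE 0.12, adjusted p = 1.24e-06) in WT by limma.

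Stard4 had 659, 807 and 912 in LPS-treated KO against 1728, 1746 and 1575 in untreated KO, and 584, 641 and 737 in LPS-treated WT against 1399.9, 1446 and 1248 in untreated WT. The log2 fold changes were -1.10 (SE 0.11) in KO and -1.06 (SE 0.09) in WT, with adjusted p-values of 2.95e-05 and 6.29e-06. Leaving out LPS replicate 1 took Stard4 under 2-fold, to -0.97 in KO and -0.98 in WT, and left Dhcr7 alone in both genotypes.

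Sqle, the monooxygenase that commits squalene to sterols, had 1193, 1522 and 1733 in LPS-treated KO against 2721, 2974 and 2742 in untreated KO, and 992, 1204 and 1082 in LPS-treated WT against 2316, 2390.2 and 1858 in untreated WT. It lay at the 2-fold line, with -0.94 (SE 0.12, adjusted p = 1.39e-04) in KO and -0.997 (SE 0.11, adjusted p = 2.09e-05) in WT. The count at 2-fold became 3 with Sqle when LPS replicate 3 was left out in KO, when LPS replicate 2 or untreated replicate 3 was left out in WT, and with edgeR in WT. It became 3 with Npc2, which was higher with LPS, when LPS replicate 2 or untreated replicate 1 was left out in KO. Lss was at -0.68 (SE 0.09) in KO and -0.61 (SE 0.11) in WT, without overlap.

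Hmgcs1 was the opposite of Sqle, though both encode enzymes controlled by SREBP. Its values with LPS, 6042 to 8597 in KO and 4856 to 6446 in WT, were all above those without, 4222 to 4588 in KO and 2454 to 3153 in WT. The log2 fold changes were 0.71 (SE 0.12, adjusted p = 5.46e-04) in KO and 0.91 (SE 0.12, adjusted p = 1.12e-04) in WT. The ratio of Hmgcs1 to Sqle within a library does not depend on a size factor. It had values of 5.07, 4.70 and 4.96 in LPS-treated KO against 1.55, 1.54 and 1.59 in untreated KO, and 4.89, 4.27 and 5.96 in LPS-treated WT against 1.34, 1.32 and 1.32 in untreated WT. Hmgcs1 over Dhcr7 was 32.4 to 39.2 in LPS-treated against 6.20 to 7.09 in untreated KO, and 27.7 to 42.5 in LPS-treated against 4.94 to 6.40 in untreated WT. These ratios were chosen after the values were seen.

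Idi1 was at 0.65 (SE 0.08) in KO and 0.68 (SE 0.15) in WT, and Fdft1 at 0.37 (SE 0.12) and 0.53 (SE 0.09), with adjusted p-values of 1.30e-04 and 0.00281 for Idi1 and 0.0180 and 5.43e-04 for Fdft1. Ctsb, which overlaps Fdft1 on the opposite strand, was at 0.21 (SE 0.16) in KO and 0.20 (SE 0.09) in WT, and its part in these values was not tested. Acat2, Mvk, Mvd and Msmo1 were lower in both genotypes at an adjusted p under 0.05, from -0.27 for Msmo1 to -0.58 for Mvd in KO, and from -0.27 for Mvk to -0.38 for Acat2 in WT. Hsd17b7 was at -0.17 (SE 0.10) in KO and -0.34 (SE 0.13) in WT, and passed in WT alone, while Ebp was at 0.28 (SE 0.06) and 0.21 (SE 0.07) and passed in both. Pmvk, Fdps, Ggps1, Cyp51, Tm7sf2, Nsdhl and Sc5d passed in neither, with values between -0.05 and 0.20 in KO and between -0.16 and 0.28 in WT. With the replicate number as a block, Sc5d passed in both genotypes and Insig1 in WT.

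Among the regulators Scap had 975, 1016 and 1047 normalized counts in LPS-treated KO against 604, 658 and 599 in untreated KO BMDMs, and 1058, 1011 and 1017 in LPS-treated WT against 641, 597 and 646 in untreated WT. Its log2 fold change was 0.71 in both (SE 0.07 in KO and 0.06 in WT). Insig2, the INSIG form that is not a main target of SREBP, was at 0.63 (SE 0.07) in KO and 0.65 (SE 0.07) in WT, whereas Insig1 was at -0.03 (SE 0.08, adjusted p = 0.779) in KO and 0.26 (SE 0.11, adjusted p = 0.0506) in WT. Srebf2 was at 0.29 (SE 0.06) and 0.40 (SE 0.06), and Srebf1 at -0.27 (SE 0.06) and -0.20 (SE 0.07). Srebf2 over Srebf1 within a library was 3.87 to 4.13 in LPS-treated against 2.52 to 2.85 in untreated KO, and 3.74 to 3.87 in LPS-treated against 2.41 to 2.59 in untreated WT. Insig1 over Insig2 was 5.07 to 5.78 in LPS-treated against 7.43 to 9.02 in untreated KO, and 4.34 to 5.18 in LPS-treated against 5.5 to 7.01 in untreated WT.

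The lysosomal partners parted as well. Npc2, the soluble carrier and by far the most abundant of the 28 genes, had 42737, 35946 and 41949 in LPS-treated KO against 23496, 18346 and 19914 in untreated KO, and 41888, 40332 and 41432 in LPS-treated WT against 25579, 21413 and 20044 in untreated WT. Npc1, the membrane transporter, had 3646, 3788 and 3505 in LPS-treated KO against 6265, 6050.2 and 6305 in untreated KO, and 3890.0, 3725 and 3531 in LPS-treated WT against 6089.6, 6077 and 6049 in untreated WT. The log2 fold changes were 0.97 (SE 0.12) in KO and 0.89 (SE 0.09) in WT for Npc2, and -0.77 (SE 0.06) and -0.71 (SE 0.05) for Npc1. Npc2 over Npc1 was 9.49 to 12.0 in LPS-treated against 3.03 to 3.75 in untreated KO, and 10.8 to 11.7 in LPS-treated against 3.31 to 4.20 in untreated WT. Npc1 shares 511 exon bases with Rmc1 on the opposite strand, which differed by -0.62 (SE 0.08) in KO and -0.70 (SE 0.10) in WT, and reads of the pair cannot be told apart without strand. Acly was at 0.09 (SE 0.06) in KO and 0.16 (SE 0.06, adjusted p = 0.0460) in WT.

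**Figure D4:**
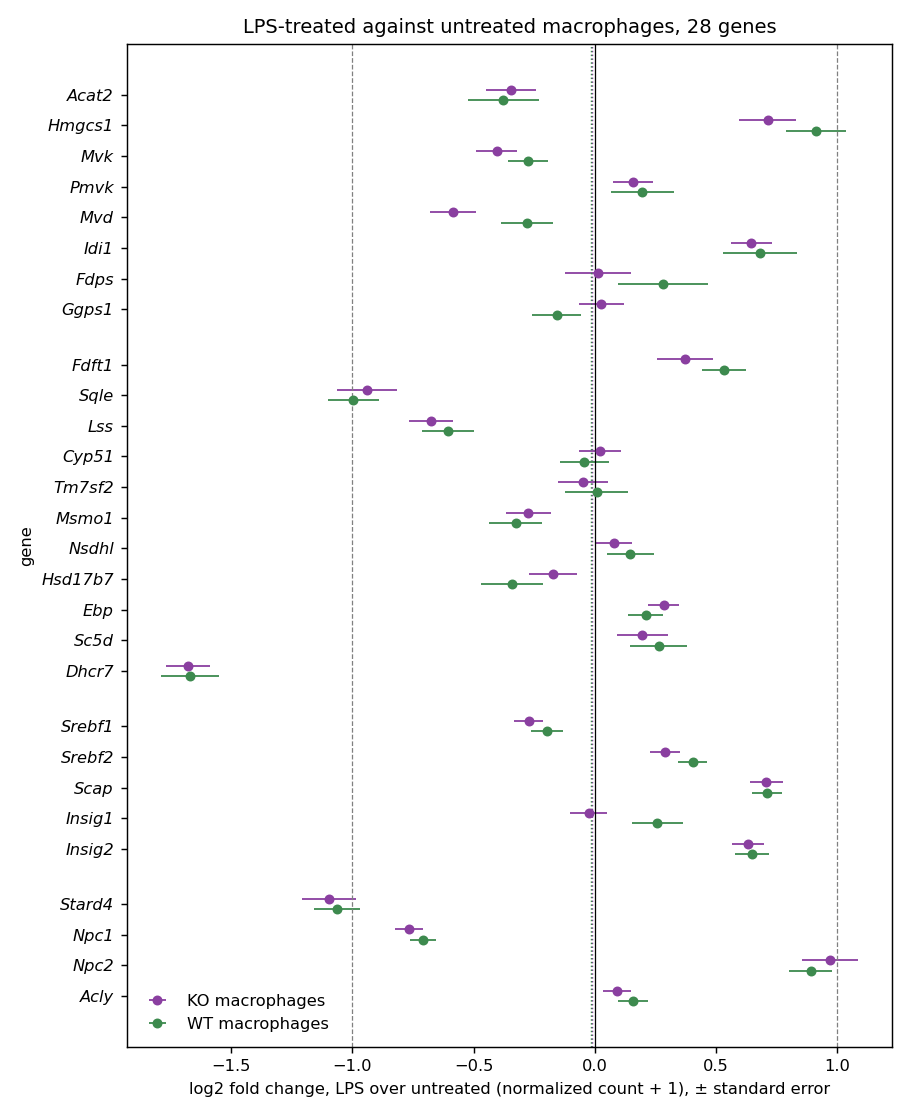
Log2 fold change of LPS-treated over untreated BMDMs (x axis, log2 of normalized count + 1) for the 28 genes in the same order, in KO and WT. Points are estimates from 3 against 3 libraries, bars are standard errors, dashed lines mark 2-fold and dotted lines the medians of all genes. Dhcr7 lies farthest left, at -1.68 in KO and -1.67 in WT, and Npc2 in KO (0.97) and Hmgcs1 in WT (0.91) lie farthest right. The plot uses the deposited scaling, and most smaller differences turn with another one.

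The directions after LPS depend on how libraries are put on 1 scale. Scaling to the upper quartile moved the median of all genes by 0.28 in KO and 0.30 in WT, scaling to the total by -0.68 and -0.72, and quantile normalization by -0.05 and -0.03. Under all of these and the deposited scaling, 8 genes had a negative estimate in KO (Acat2, Dhcr7, Lss, Mvd, Mvk, Npc1, Sqle and Stard4) and 8 in WT (Acat2, Dhcr7, Hsd17b7, Lss, Msmo1, Npc1, Sqle and Stard4). Only Npc2 and Scap in KO and Hmgcs1 in WT had a positive estimate under all 4. Signs alone were compared here, and some estimates were near 0. Scap in KO was at 0.021 with total scaling, and Msmo1 in WT at -0.028 with upper quartile scaling. With upper quartile scaling 6 genes in KO and 5 in WT were lower at an adjusted p under 0.05 by limma. Between genotypes the shift was at most 0.03, and 25 or 26 of the 28 genes stayed above the median of all genes under each scaling.

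Whether the response to LPS differed between KO and WT BMDMs was tested as an interaction. In the limma fit to all 12 libraries, 0 of the 28 genes had an interaction of genotype and LPS at an adjusted p under 0.05, beside 0.00787% of all 12711 genes, and 0 at an unadjusted p under 0.05. Interactions ran from -0.30 (SE 0.15) for Mvd to 0.18 (SE 0.14) for Ggps1, and edgeR and DESeq2 called 0 as well. Insig1, with LPS differences of -0.03 in KO and 0.26 in WT, had an interaction of -0.28 (SE 0.14).

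The partner lists showed where the pathway's other genes stood on the deposited scale. At 2-fold with LPS, 17.3% of all genes were higher and 16.6% lower in KO, and 17.1% higher and 16.9% lower in WT BMDMs, and the lists' counts stand beside these shares. Of 12 genes for SREBP processing and sterol-regulated degradation, 3 were higher and 1 lower by 2-fold in LPS-treated KO, and 3 higher and 0 lower in LPS-treated WT BMDMs. Rnf145, an ER ubiquitin ligase, had 3571, 3239 and 3913 normalized counts in LPS-treated KO against 765, 720.0 and 817 in untreated KO, and 3299, 3323 and 4126 in LPS-treated WT against 786, 803 and 899 in untreated WT, at 2.22 (SE 0.08) in KO and 2.10 (SE 0.09) in WT. Marchf6, the ER ligase that degrades the Sqle protein, was at -1.13 (SE 0.08) in KO and -0.99 (SE 0.06) in WT. Of 13 tested isoprenoid and prenylation genes 2 were higher in each genotype, led by Pdss1, which makes the side chain of ubiquinone, at 2.05 in KO and 2.02 in WT. Of the genes for sterol transport, storage and hydrolysis 3 of 12 tested were higher and 3 lower in KO, and 4 of 13 higher and 3 lower in WT. Gramd1a, which moves sterol from the plasma membrane to the endoplasmic reticulum, was at 2.37 in KO and 2.67 in WT, and Soat1, which esterifies cholesterol for storage, at -1.48 and -1.54. None of 7 genes for citrate and acetyl-CoA supply passed at 2-fold. At an adjusted p under 0.05 alone 2 were higher in each genotype, with 2 lower in KO and 4 in WT. At that threshold 36.3% of all genes were higher and 35.7% lower in KO, and 36.7% and 36.6% in WT. Between genotypes 0 genes of the 4 lists passed in limma at an adjusted p under 0.05 in untreated or LPS-treated cells. At an unadjusted p under 0.05, 5 of 45 tested were past it in untreated cells, beside 10.8% of all genes, and 4 of 44 in LPS-treated cells, beside 10.6%. With edgeR on recovered reads 0 of them passed in either, and with DESeq2 2 passed in untreated cells, Aacs, which was higher in KO, and Gramd1b, which was lower in KO, both named here after their values were seen, and 0 in LPS-treated cells. The list medians between genotypes lay between -0.02 and 0.23. The highest was that of the 7 citrate and acetyl-CoA supply genes in LPS-treated cells, of which 6 had a positive difference. Without overlap 4 of these 7 were higher in KO, beside 8.35% of all genes, and 1 was lower, beside 7.73%.

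Libraries of a group moved together over these genes. Replicate 1 of LPS-treated KO BMDMs was the lowest of its group in 17 of the 19 synthesis genes and replicate 3 the highest in 15, and replicate 1 of LPS-treated WT was the lowest in 14. Neutrophil markers summed to 1114 in that replicate 1 of LPS-treated KO, against at most 612 in any other library, and their part in the differences was not tested. Replicate 2 of untreated WT was the highest of its group in 17 of 19 and replicate 3 the lowest in 17. The genes are thus not independent readings of a difference between groups, and their count does not stand for replication.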

How the data were processed

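RNA of bone-marrow-derived macrophages from KO and WT mice, with and without LPS, was sequenced in 12 libraries. According to the labels and methods, the authors ran Trimmomatic (0.39), STAR (2.7.4a) on GRCm38 and featureCounts of Subread (2.0.1) and deposited signal values, that is gene counts divided by a DESeq2 size factor per library and not by gene length. Strand use is not given in the sources used here. The deposited signal values were 100% whole reads (tolerance 1e-06) after division by the smallest value of each library, so that a single read equals 1.21 to 1.41 in LPS-treated and 0.660 to 0.855 in untreated libraries. Rows without a gene symbol, at most 5.83% of the reads of a library, stayed in the fits under their identifiers.

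Differences were fitted with limma (3.58.1, R 4.3.3) to log2(normalized count + 1) with a trended variance, over the 6 libraries of a comparison, for genes whose mean there was 10 or more, and p-values were adjusted by Benjamini-Hochberg over all of them. Calls needed an adjusted p under 0.05 and, where stated, a 2-fold change. The interaction used all 12 libraries. The script was tested on simulated data. Per the methods, replicates were separate cultures.

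LPS-treated and untreated libraries of a genotype with the same replicate number were correlated (deviations from the group means, 0.171 to 0.288 in KO and 0.190 to 0.334 in WT). The methods call the comparisons unpaired, so the main fits used no block. Alternatives were another pseudocount, filter, scaling, variance trend, a block, edgeR (4.0.16) and DESeq2 (1.42.0) on recovered reads, and leaving out libraries. Positions and exons are from GENCODE M21, and promoter windows from RefSeq (GRCm38.p6). All 28 members, the partner genes with the largest called LPS difference in each direction and list, and Rasgef1b are named. The members and lists were chosen with earlier results of these data known. Genes that share exons with a member, the pairs in ratios and the marker genes singled out were chosen after their values were seen.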

Additional observations from a re-analysis of the deposited data

How the results depend on the processing

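Between genotypes every member difference that passed an adjusted p under 0.05 kept its direction under all alternatives, and the count at 2-fold stayed 0, becoming 3 in untreated and 3 in LPS-treated cells with no fold threshold. The number of members higher in KO at an adjusted p under 0.05 was 3 in each comparison, with no gene in common. The shares of all genes were 0.257% in untreated and 0.504% in LPS-treated cells. The number became 12 (0.376%) in untreated and 5 (0.417%) in LPS-treated cells with no filter. It became 0 (0.008%) and 0 (0.024%) with no variance trend, and 18 (1.41%) and 7 (1.06%) with DESeq2. It became 7 (0.425%) in untreated cells with all 12 libraries in the fit. Leaving out 1 library gave 0 to 3 in untreated and 0 to 6 in LPS-treated cells, with medians of 0.27 to 0.42 and 0.21 to 0.39. The shares of all genes were then 0.0241% to 0.265% and 0.0799% to 0.568%. Leaving out untreated KO replicate 2 and WT replicate 3 together gave 2 (0.290%), with a median of 0.23. With the replicate block, which pairs libraries that share only a number between genotypes, the number of members became 15 (0.738%) and 7 (0.440%).

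For LPS the count of members at 2-fold was 2 in each genotype. With no fold threshold it became 18 in KO and 20 in WT, in both directions. Of all genes, 36.3% were then higher and 35.7% lower in KO, and 36.7% and 36.6% in WT. The count at 2-fold became 8 and 9 with total scaling and 4 and 4 with quantile normalization, where every such member was lower. Total scaling moved the median of all genes by -0.68 in KO and -0.72 in WT. With upper quartile scaling the count became 4 in WT, 3 higher and 1 lower. In KO it stayed 2 but with 1 higher, Npc2, in place of Stard4, which moved to -0.81. Shares of all genes at 2-fold under these scalings are not given here, so these counts do not set the members apart. At an adjusted p under 0.05 alone, the 11 lower in WT became 6 with no variance trend, beside 4553 of all 12656 genes. Leaving out 1 library gave 1 to 3 members at 2-fold in KO and 1 to 3 in WT, with medians of -0.063 to 0.050 and -0.014 to 0.17. The median of the members became 0.30 in KO and 0.38 in WT with upper quartile scaling, -0.67 and -0.65 with total scaling, and -0.31 and -0.19 with quantile normalization. The replicate block changed neither count at 2-fold.

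Scaling turned the sign of single genes. With upper quartile scaling, log2 fold changes in KO became 0.0089 for Msmo1, 0.010 for Srebf1 and 0.26 for Insig1, and in WT 0.024 for Mvk, 0.019 for Mvd, 0.26 for Cyp51 and 0.10 for Srebf1. With total scaling they became, in KO, -0.53 for Pmvk, -0.040 for Idi1, -0.67 for Fdps, -0.66 for Ggps1, -0.31 for Fdft1, -0.67 for Cyp51, -0.61 for Nsdhl, -0.40 for Ebp, -0.49 for Sc5d, -0.40 for Srebf2, -0.053 for Insig2 and -0.59 for Acly. In WT they became -0.53 for Pmvk, -0.041 for Idi1, -0.44 for Fdps, -0.19 for Fdft1, -0.71 for Tm7sf2, -0.58 for Nsdhl, -0.51 for Ebp, -0.46 for Sc5d, -0.32 for Srebf2, -0.013 for Scap, -0.47 for Insig1, -0.077 for Insig2 and -0.57 for Acly. With quantile normalization they became, in KO, -0.18 for Hmgcs1, -0.70 for Cyp51, -0.30 for Sc5d, -0.62 for Srebf2 and -0.72 for Acly, and in WT -0.48 for Srebf2, -0.49 for Insig1, -0.040 for Npc2 and -0.64 for Acly. Normalized counts of LPS-treated libraries sum higher than those of untreated ones, and which scale is right was not tested.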
